A study of Mus musculus with 4 samples.

Results

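The 4 genes for secreted chemokines described here, Ccl3, Ccl4, Ccl5 and Xcl1, are 4 of the 31053 genes in the count matrices of a single-cell RNA series of mouse spleen. They are listed by name and were chosen on their measured levels and differences in these libraries, so their values below are a description and carry no test. Ccl3, Ccl4 and Ccl5 are CC chemokines, whereas Xcl1 belongs to the small XC class. The study asked how the lymphocytes of aged mice differ without the microRNA miR-146a, and without both miR-146a and, in T cells, miR-155.

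Each group was 1 library, 4 in all, of live (DAPI-negative) CD45+ cells sorted from C57BL/6 spleens through a gate on low forward and side scatter. Wild type is given as WT for both ages, and the design text names the wild type mice miR155 fl/fl, with the floxed but undeleted gene. The next group was the aged miR-146a knockout, in which the gene was missing from the whole body. The fourth group lacked miR-146a in the whole body and miR-155 in T cells only, and is called the double knockout here. The labels do not name the driver of the T cell deletion. Aged mice were 15 months old, and the spleen cells of 3 to 6 mice were pooled in each aged group. The age of the young mice is given only as young, with no size for their pool. With 1 pooled library per group there is no replicate and no test between groups. The intervals given below are 95% intervals of counting error only and do not cover the spread between mice.

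CCL3 and CCL4 are released by activated CD8 T cells, natural killer (NK) cells, macrophages and basophils, and they draw in cells that carry their receptors, among them CCR1. CCL5 binds CCR1 and CCR3 among others, and its mRNA is held in large amounts by memory CD8 T cells and NK cells already at rest. XCL1 binds XCR1, a receptor of the dendritic cells that present antigen to CD8 T cells. miR-146a and miR-155 act in activated immune cells, where the first dampens signalling to NF-kB and the second favours T cell effector function.

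Because these microRNAs are what was deleted, their mature sequences from RefSeq (GRCm38.p6) are shown with the seed, bases 2 to 8, in capitals. The first lies at chr11:43374435-43374456 on the minus strand and has 22 bases, the second at chr16:84714143-84714165 on the plus strand and has 23 bases.
mmu-miR-146a-5p: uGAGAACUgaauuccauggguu
mmu-miR-155-5p: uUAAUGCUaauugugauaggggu
None of the 4 chemokine transcripts holds a 7-base match to either seed, in a 3' UTR of 409 bases for Ccl3, 302 for Ccl4, 199 for Ccl5 and 141 for Xcl1 or in the rest of the transcript, and the 3' UTRs hold no 6-base match either. Of 21022 genes with an annotated 3' UTR, 11.9% held a 7-base match to miR-146a-5p and 8.82% to miR-155-5p. The absence of a match says only that these letters are not there.

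Ccl3 (ENSMUSG00000000982) lies on chromosome 11 from 83647844 to 83649355 on the minus strand of GRCm38, and Ccl4 (ENSMUSG00000018930) from 83662584 to 83664683 on the plus strand, 13228 bases away. Ccl5 (ENSMUSG00000035042) lies on the same chromosome from 83525778 to 83530518 on the minus strand. Xcl1 (ENSMUSG00000026573) lies on chromosome 1 from 164931644 to 164935527 on the minus strand. Since Ccl3 and Xcl1 are the members of the list with a promoter in the table and differed in their pattern across the groups, their promoters are shown, from 250 to 11 bases before the start in the RefSeq table (GRCm38.p6), with the 1 match to the Runx motif TGTGGT, on either strand, in capitals.
Ccl3, chr11:83649389-83649628, minus strand: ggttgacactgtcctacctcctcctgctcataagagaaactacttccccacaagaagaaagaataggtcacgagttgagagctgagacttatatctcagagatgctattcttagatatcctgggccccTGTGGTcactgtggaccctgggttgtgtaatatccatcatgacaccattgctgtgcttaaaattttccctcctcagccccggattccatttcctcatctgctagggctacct
Xcl1, chr1:164935533-164935772, minus strand: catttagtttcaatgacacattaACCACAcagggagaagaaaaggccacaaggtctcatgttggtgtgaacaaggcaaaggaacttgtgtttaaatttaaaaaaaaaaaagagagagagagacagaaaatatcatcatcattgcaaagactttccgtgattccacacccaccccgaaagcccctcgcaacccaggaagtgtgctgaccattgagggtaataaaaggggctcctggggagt
The Runx match of Ccl3 starts 122 bases before the start on the gene's strand, and that of Xcl1 227 bases before it on the other strand. Among all 32544 promoters in the table, 16.7% hold this motif in the same 300-base window, which runs to 50 bases after the start. In that window neither promoter holds the AP-1 motif TGANTCA (in 7.79% of promoters), the CRE motif TGACGTCA (1.8%), the NFAT motif TGGAAA (21.5%), the T-box motif AGGTGTGA (1.28%) or the NF-kB consensus (8.49%), each searched on both strands.

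The libraries held 27577 barcodes and 79028986 UMIs (unique molecule counts), of which 24143 barcodes had 1 of the authors' 16 type names. Annotated cells had a median of 2054 to 2649.5 UMIs per library, and 416 barcode sequences occurred in more than 1 library. Mir155hg, the host transcript of miR-155, had 3, 5, 22 and 13 UMIs in the Mem Cd8 cells of the young wild type, aged wild type, miR-146a knockout and double knockout; the sources used here do not give the deleted part, so this does not check the deletion. Levels below are CPM, the UMIs of a gene summed over the cells of a type in 1 library, relative to all UMIs of those cells, on the usual CPM scale. Follicular B cells (named Fo B), which should lack all 4 genes, served as the reference for RNA free in the droplets: they held Ccl3, Ccl4 and Xcl1 at no more than 1.65 CPM and Ccl5 at 40.8 to 113 CPM, the level against which low Ccl5 values are read. UMI counts of few cells are small, and with no UMI at all the limit is 3 UMIs of the type's total.

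Mem Cd8 and NK cells together gave most of the Ccl5 and Xcl1 UMIs of annotated cells in each library, while Ccl3 and Ccl4 were also held by Gran, DC/Mac and Early Act Cd8 cells. In the young wild type the 228 NK cells gave 52.5% of the Ccl3 UMIs of annotated cells, 60.7% of Ccl4, 46.7% of Ccl5 and 35.7% of Xcl1. In the miR-146a knockout the 433 Mem Cd8 cells gave 44.9% of Ccl3, 48.8% of Ccl4 and 79.4% of Ccl5, while the 49 NK cells gave 4.3%, 4.6% and 6.5%. Xcl1 stayed split between both types in that library, at 36.8% in Mem Cd8 and 43.9% in NK cells. For Ccl3, Gran cells gave 32.5% in the young wild type, Early Act Cd8 cells 22.9% and DC/Mac cells 20.7% in the miR-146a knockout, and DC/Mac cells 37.4% in the double knockout, above its Mem Cd8 cells with 34.3%. These shares also move with the number of cells of each type in a library.

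**Figure D1:**
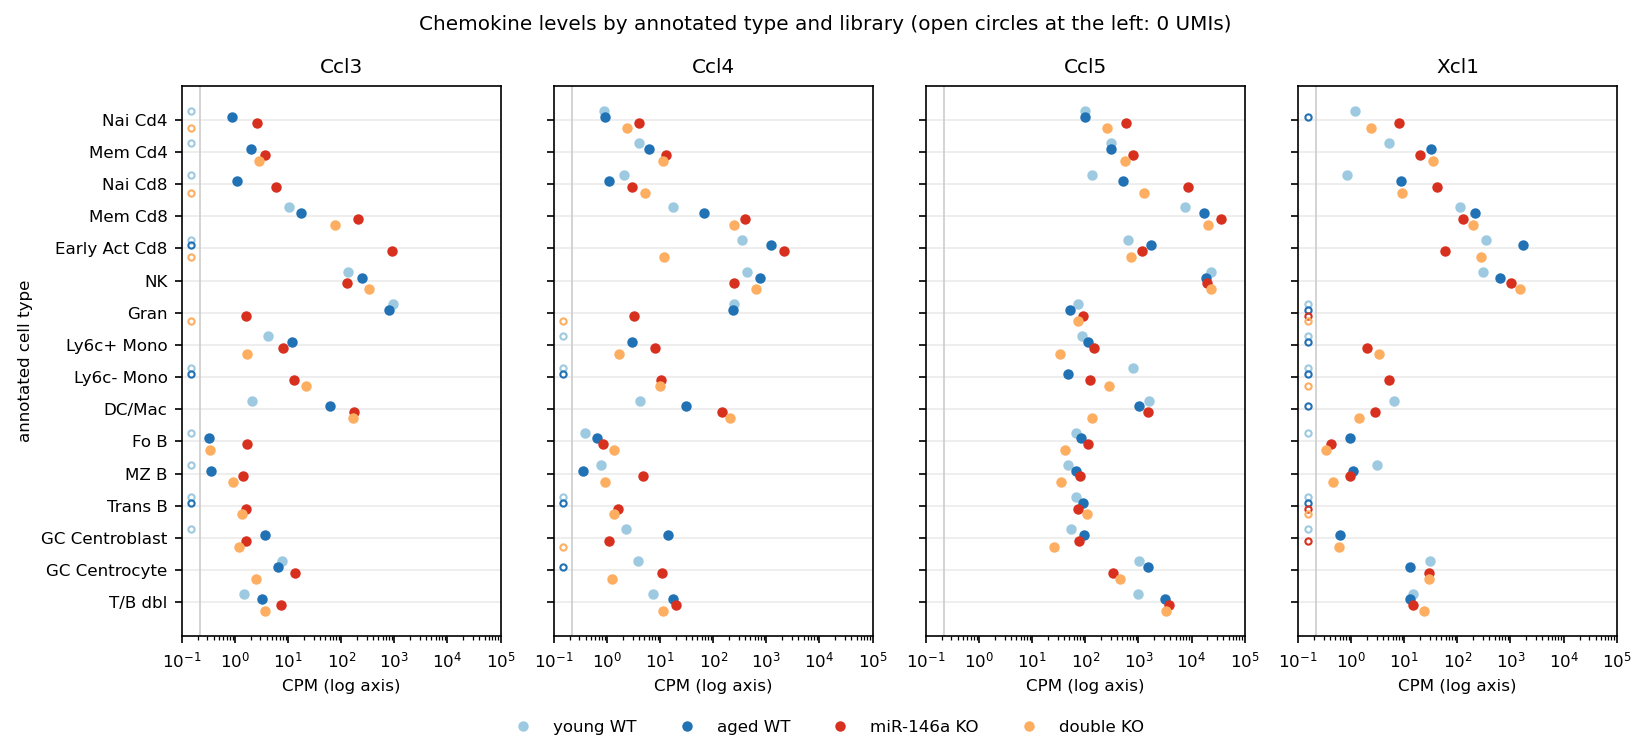
Level of each gene (CPM of summed UMIs, log axis) in each annotated type, 1 point per library, with open circles at the left for 0 UMIs. Ccl5 in Mem Cd8 ran from 7391 to 35404 CPM against at most 113 in Fo B cells, and Ccl3 was at or under 1.65 CPM in Fo B cells of all 4 libraries.

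The cells named Mem Cd8 carried the markers of that name. All 4 T cell markers (Cd3d, Cd3e, Cd3g, Trac) and both CD8 markers (Cd8a, Cd8b1) were present in each library, the latter summing to 1138 to 1553 CPM, against 17.7 to 35.7 CPM for Cd4. Genes of naive T cells differed between the libraries: Lef1 was at 277, 140, 92.9 and 159 CPM and Ccr7 at 142, 111, 40.1 and 110 CPM (young wild type, aged wild type, miR-146a knockout, double knockout). Both were lowest in the miR-146a knockout, where Ccl3, Ccl4 and Ccl5 were highest, and their part in the levels below was not tested. The library sizes were 364, 483, 433 and 489 such cells, with median depths of 3421.5, 2738, 2691 and 2728 UMIs, in the order young wild type, aged wild type, miR-146a knockout and double knockout.

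Ccl3 in Mem Cd8 cells stood at 10.4 CPM in the young wild type, 17.3 CPM in the aged wild type, 203 CPM in the miR-146a knockout, while the double knockout was at 76.3 CPM (13, 25, 273 and 110 UMIs). The miR-146a knockout was high, the double knockout intermediate, and both wild type libraries low. The level was 11.7-fold higher in the miR-146a knockout than in the aged wild type (7.79 to 18.5) and 2.66-fold lower in the double knockout than in the miR-146a knockout (2.12 to 3.35). Aged and young wild type differed by a ratio of 1.65, whose interval of 0.815 to 3.52 includes 1, and by 2.47 without the cell richest in Ccl3 in each library, which held 5 of the 13 UMIs in the young wild type.

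Ccl4 stood at 17.7, 67.0, 392 and 248 CPM in the same order (22, 97, 527 and 357 UMIs). It was 3.79-fold higher in the aged than in the young wild type (2.37 to 6.33) and 5.84-fold higher in the miR-146a knockout than in the aged wild type (4.70 to 7.33). The double knockout was 1.58-fold lower than the miR-146a knockout (1.38 to 1.81) and 3.70-fold higher than the aged wild type (2.95 to 4.68). In the double knockout 1 cell held 148 of the 357 Ccl4 UMIs. Without the cell richest in Ccl4 in each library, the levels were 15.3, 59.5, 357 and 145 CPM, and the double knockout was 2.46-fold lower than the miR-146a knockout.

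Ccl5 was the most abundant of the 4 in Mem Cd8 cells, at 7391, 17443, 35404 and 20302 CPM. It was detected in 83.2, 96.7, 96.3 and 94.5% of the cells, and 53.6, 88.8, 92.8 and 87.1% held 10 or more Ccl5 UMIs. The young wild type thus also had a lower share of cells rich in Ccl5, while the aged libraries differed mainly in the amount per cell. The median cell held 3343, 15421, 28459 and 16304 CPM. The summed level was 2.36-fold higher in the aged than in the young wild type (2.30 to 2.42), 2.03-fold higher in the miR-146a knockout than in the aged wild type (2.00 to 2.06) and 1.74-fold lower in the double than in the miR-146a knockout (1.72 to 1.77). The double knockout and the aged wild type were within 1.16-fold of each other (1.14 to 1.18). Under a denominator without immunoglobulin, T cell receptor, mitochondrial and ribosomal protein genes the ratio of the miR-146a knockout to the aged wild type was 1.89, under 2-fold. With each cell limited to 5 Ccl5 UMIs, the same log2 ratio was -0.04.

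Xcl1 did not follow the other genes. It stood at 112, 214, 127 and 200 CPM (140, 310, 171 and 288 UMIs), with the aged wild type and the double knockout high and the young wild type and the miR-146a knockout low. It was 1.90-fold higher in the aged than in the young wild type (1.56 to 2.34) and 1.69-fold lower in the miR-146a knockout than in the aged wild type (1.39 to 2.04). The double knockout was 1.57-fold higher than the miR-146a knockout (1.30 to 1.91) and within 1.07-fold of the aged wild type (ratio of the aged wild type to it, 0.910 to 1.26). Without cells that held 2 or more UMIs of B cell markers the aged to young ratio was 2.04, past 2-fold.

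A change of 2-fold in genes with at least 20 UMIs over both libraries was used as the size rule, and it was passed by few genes. In Mem Cd8 cells 2 of the 4 genes (Ccl4, Ccl5) were at least 2-fold higher in the aged than in the young wild type, where 3.58% of 7674 genes were. In the miR-146a knockout against the aged wild type 3 of 4 (Ccl3, Ccl4, Ccl5) were higher, and 2.97% of 7824 genes. In the double against the miR-146a knockout 1 of 4 (Ccl3) was lower, and 3.02% of 7720 genes. In the double knockout against the aged wild type 2 of 4 (Ccl3, Ccl4) were higher, and 1.45% of 7810 genes. As the members were selected on such differences, nothing is read from these counts. The comparisons share libraries: the aged wild type stands in 3 of the 4. Summed neutrophil markers in Mem Cd8 cells were at 8.03 and 10.4 CPM in the wild type and at 643 and 658 CPM in the knockout libraries, and their part in these differences was not tested.

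The share of Mem Cd8 cells with a UMI moved with the level for Ccl3 and Ccl4. Ccl3 was detected in 1.92, 4.14, 18.5 and 5.73% of cells, and after each cell was thinned to 1000 UMIs in 1.00, 2.04, 10.0 and 3.76%. For Ccl4 the shares were 5.22, 12.4, 31.2 and 13.9%, and 2.06, 7.05, 17.6 and 7.95% after thinning. Xcl1 was detected in 26.9, 30.6, 17.8 and 26.8% of cells, or 10.6, 14.6, 8.10 and 13% after thinning. The miR-146a knockout had the highest shares for Ccl3 and Ccl4 and the lowest for Xcl1, at either depth. Thinning left out 3, 4, 11 and 2 cells under 1000 UMIs. In Fo B cells, at a median depth of 1678 to 2296 UMIs, no more than 0.394% of cells had a Ccl3 UMI, 0.254% a Ccl4 UMI and 0.169% an Xcl1 UMI.

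NK cells were fewer, at 228, 97, 49 and 71 cells with median depths of 1833, 2301, 3853 and 2610 UMIs. Their 6 markers (Ncr1, Klrb1c, Klre1, Gzma, Tyrobp, Eomes) were all present, and summed to 20645 CPM in the young wild type and to 12561, 9803 and 11897 CPM in the others. Summed T cell markers were at 159, 472, 636 and 759 CPM, and summed neutrophil markers at 6.35, 12.1, 561 and 680 CPM, with Csf3r and Ly6g at 0 in all 4 libraries. The part of either in the values below was not tested.

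Xcl1 in NK cells stood at 299 CPM in the young wild type, 642 in the aged wild type, 1021 in the miR-146a knockout, while the double knockout had 1484 (141, 159, 204 and 299 UMIs). Both knockout libraries were above both wild type libraries, the same split as for the neutrophil markers. It was 2.15-fold higher in the aged than in the young wild type (1.70 to 2.71), 1.59-fold higher in the miR-146a knockout than in the aged wild type (1.29 to 1.97) and 1.45-fold higher in the double than in the miR-146a knockout (1.21 to 1.74). The share of NK cells with an Xcl1 UMI was 21.9, 49.5, 75.5 and 66.2%, and 13.9, 29.1, 50.3 and 48.5% after thinning to 1000 UMIs.

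Ccl3 in NK cells stood at 133, 242, 130 and 328 CPM (63, 60, 26 and 66 UMIs), with the miR-146a knockout beside the young wild type and the double knockout the highest. It was 1.86-fold lower in the miR-146a knockout than in the aged wild type (1.16 to 3.07) and 2.52-fold higher in the double than in the miR-146a knockout (1.58 to 4.13). Ccl4 stood at 434, 751, 250 and 640 CPM (205, 186, 50 and 129 UMIs), 3.00-fold lower in the miR-146a knockout than in the aged wild type (2.18 to 4.18) and 2.56-fold higher in the double than in the miR-146a knockout (1.83 to 3.62). The miR-146a knockout had the lowest Ccl4 level in NK cells and the highest in Mem Cd8 cells. The shares of positive NK cells did not follow these levels. NK cells with a Ccl3 UMI numbered 43 of 228, 23 of 97, 14 of 49 and 27 of 71. Those with a Ccl4 UMI numbered 47, 34, 14 and 31. The miR-146a knockout thus had a higher share with Ccl3 than the aged wild type, and not the lowest share with Ccl4. Its NK cells were also the deepest, and the part of depth was not tested. A few cells weighed heavily: the richest NK cell held 97, 49, 21 and 18 of the Ccl4 UMIs, and without it the levels were 230, 561, 149 and 560 CPM.

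Ccl5 in NK cells was high in every library and varied little, at 23070, 18977, 19611 and 23332 CPM, and it was found in all NK cells except 1 in the miR-146a knockout. Under the size rule 1 of 4 genes (Xcl1) was at least 2-fold higher in aged than in young wild type NK cells, where 3.03% of all genes were. In the miR-146a knockout against the aged wild type 1 of 4 (Ccl4) was lower, against 6.36% of all genes. In the double against the miR-146a knockout 2 of 4 (Ccl3, Ccl4) were higher, against 4.42%, and in the double knockout against the aged wild type 1 of 4 (Xcl1), against 2.89%.

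**Figure D2:**
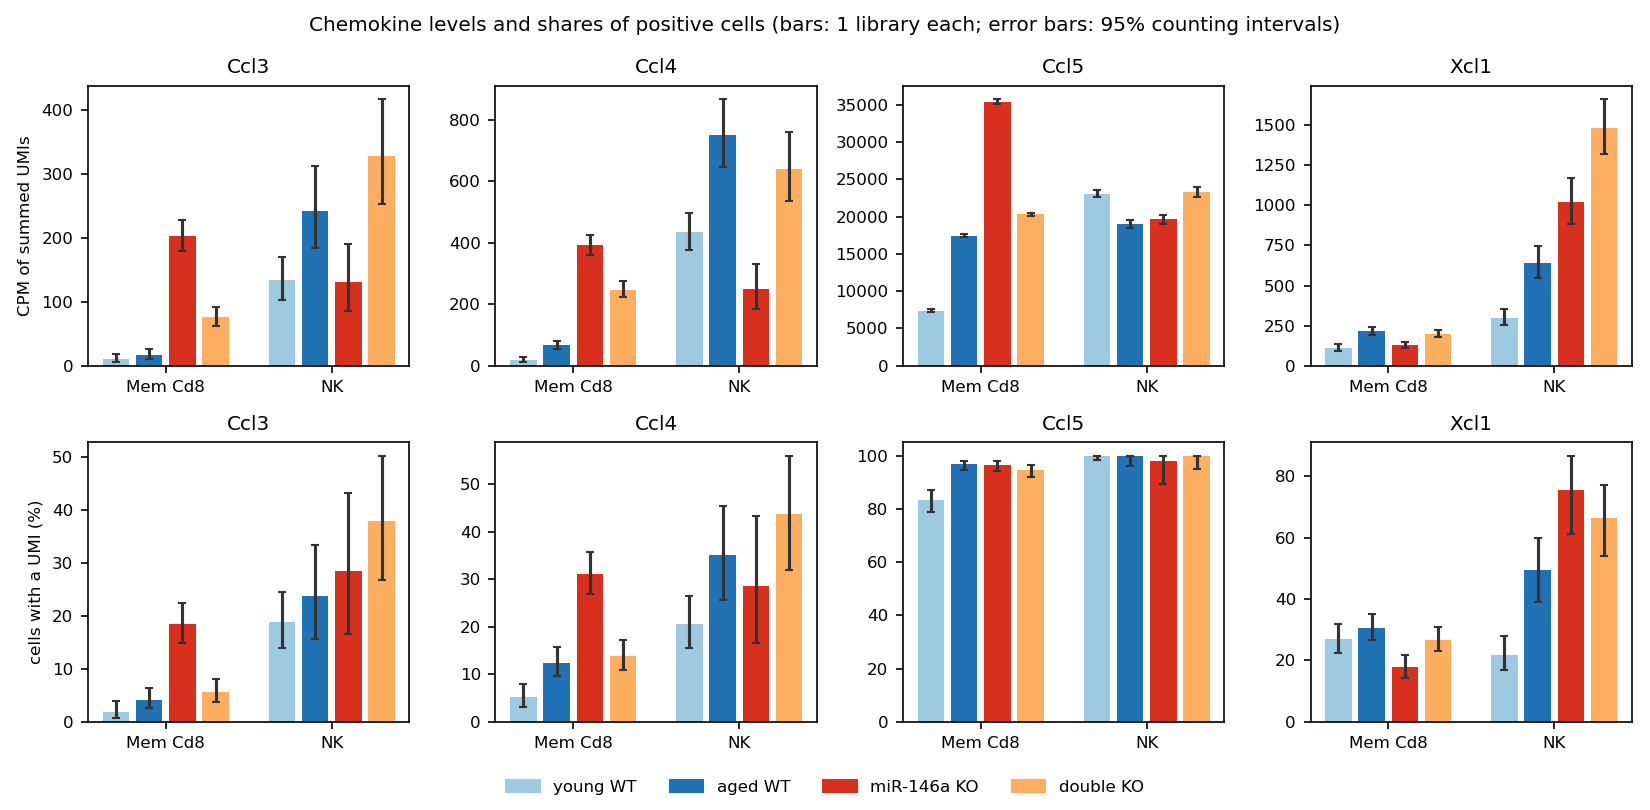
Level (top row, CPM of summed UMIs) and share of cells with a UMI (bottom row, percent) of each gene in Mem Cd8 and NK cells, 1 bar per library with its 95% counting interval. In the top row the miR-146a knockout bar is the highest for Ccl4 in Mem Cd8 cells (392 CPM) and the lowest in NK cells (250 CPM). Xcl1 in NK cells runs from 299 to 1484 CPM there.

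**Figure D3:**
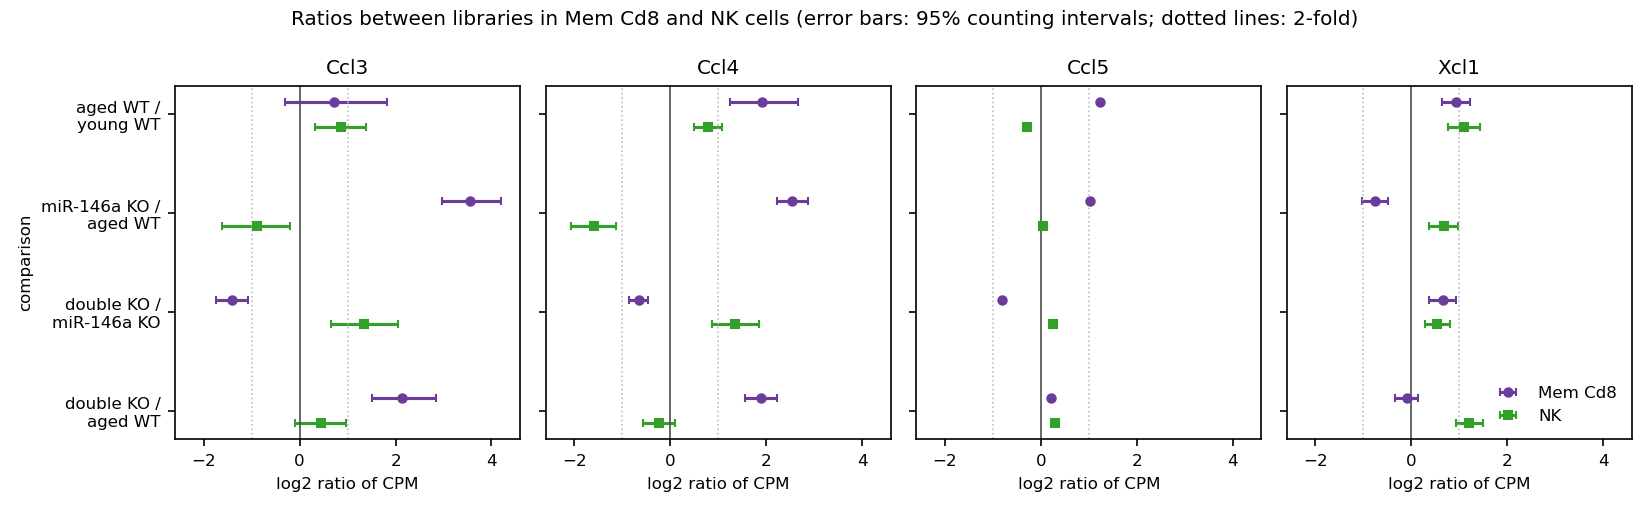
Ratio of the levels between libraries (log2, with 95% counting intervals) for 4 comparisons in Mem Cd8 cells (circles) and NK cells (squares), with dotted lines at 2-fold. Ccl3 and Ccl4 lie on opposite sides of 0 in the 2 types for the miR-146a knockout against the aged wild type and for the double against the miR-146a knockout.

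Ccl3 and Ccl4 UMIs were concentrated in few cells. Of the 27577 barcodes, 43 held 15 or more Ccl3 and Ccl4 UMIs together, and these carried 762 of 1442 Ccl3 UMIs and 1973 of 3037 Ccl4 UMIs. Among Mem Cd8 cells 11 such cells were in the miR-146a knockout, with 160 of 273 Ccl3 and 313 of 527 Ccl4 UMIs, and 5 in the double knockout, with 64 of 110 and 243 of 357. Neither wild type library had such a Mem Cd8 cell, whereas NK cells had 2, 4, 1 and 4.

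The cells named Early Act Cd8 (70, 14, 35 and 43 cells) show how far a single cell can set a level. Their Ccl4 level was 354, 1243, 2150 and 11.9 CPM, but 76 of 76 UMIs in the young wild type, 80 of 80 in the aged wild type and 329 of 331 in the miR-146a knockout came from 1 cell each. The cell of the miR-146a knockout also held 138 of the 139 Ccl3 UMIs, with 26 UMIs of T cell markers and 0 of Cd8a and Cd8b1. Xcl1 stood at 349, 1756, 58.5 and 273 CPM there, with 48 of 75 UMIs in the young and 95 of 113 in the aged wild type in 1 cell, in each case the cell that held the Ccl4. Summed Cd8a and Cd8b1 in these cells were at 340, 715, 19.5 and 410 CPM and Cd4 at 97.8, 46.6, 169 and 65.3 CPM, so in the miR-146a knockout the cells do not carry the CD8 markers of their name.

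In cells named Nai Cd8, Ccl5 was the only CC gene of the list with more than 5 UMIs in a library. It stood at 131, 503, 8686 and 1282 CPM in 766, 261, 93 and 240 cells, 17.3-fold higher in the miR-146a knockout than in the aged wild type (15.7 to 19.1) and 6.78-fold lower in the double than in the miR-146a knockout. Cells with 10 or more Ccl5 UMIs made up 0.653, 4.21, 57.0 and 10.8%. The summed memory and effector markers (Cxcr3, Il2rb, Ly6c2, Eomes, Gzmk) moved with it, at 409, 610, 1151 and 701 CPM, so the cells of the miR-146a knockout carried the most of the memory markers. Lef1 was at 648, 534, 232 and 466 CPM in these cells and Ccr7 at 409, 403, 209 and 414 CPM, both lowest in the miR-146a knockout. The part of this in the Ccl5 level was not tested. Ccl3 and Ccl4 stayed at or under 5.80 CPM in these cells. Xcl1 was at 0.842, 8.59, 40.6 and 9.06 CPM on 2, 8, 14 and 7 UMIs.

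**Figure D4:**
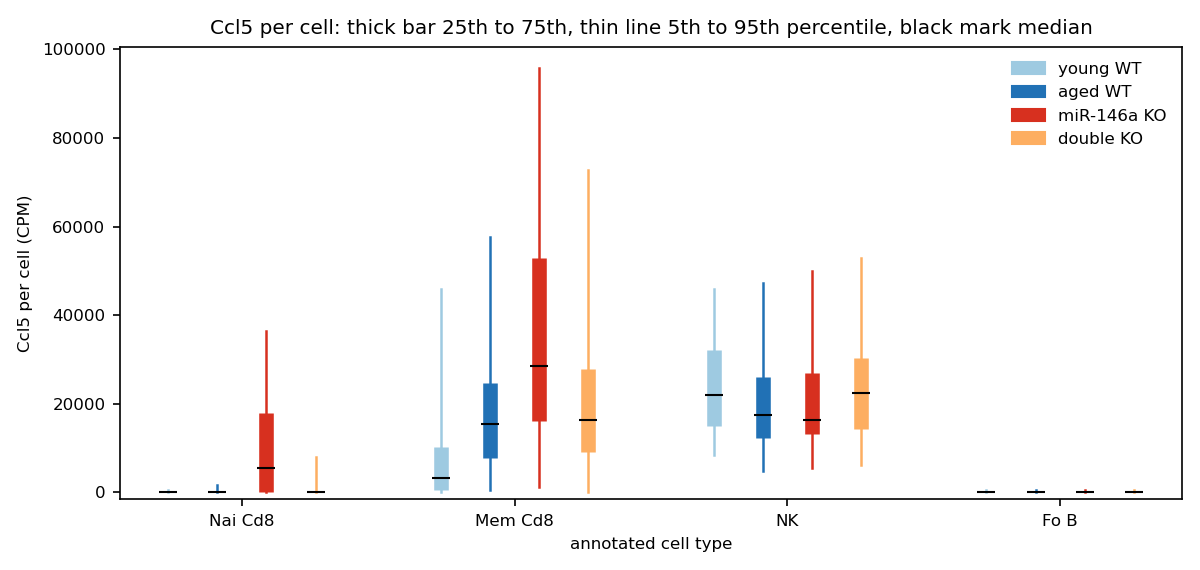
Ccl5 per cell (CPM) in 4 annotated types, with the black mark at the median, the thick bar from the 25th to the 75th and the thin line from the 5th to the 95th percentile of the cells of 1 library. The median Mem Cd8 cell runs from 3343 CPM in the young wild type to 28459 CPM in the miR-146a knockout, and Nai Cd8 cells have a median above 0 (5560 CPM) only in the miR-146a knockout.

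CD4 T cells held far less. Mem Cd4 cells had Ccl5 at 299, 307, 797 and 569 CPM, 2.60-fold higher in the miR-146a knockout than in the aged wild type (2.28 to 2.96), above the 40.8 to 113 CPM of Fo B cells. Ccl3 stayed at or under 3.72 CPM and Ccl4 at or under 12.7 CPM in them.

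Among myeloid types, Ccl3 went with the markers of mast cells or basophils. Cells named Gran carried neutrophil markers that summed to 65836 CPM in the young wild type, 252490 in the aged wild type, 340040 in the miR-146a knockout and, with both deletions, 338410. In them Ccl3 stood at 938 and 785 CPM in the young and aged wild type (39 and 30 UMIs from 37 and 16 cells) and at 1.58 and 0 CPM in the knockouts (2 and 0 UMIs from 293 and 461 cells). Ccl4 followed at 241, 235, 3.15 and 0 CPM. Cells with at least 3 UMIs of 2 or more of Mcpt8, Cpa3, Ms4a2 and Fcer1a, genes of mast cells and basophils, numbered 11 of 37 and 5 of 16 in the wild type libraries and 0 in the knockouts. They held 33 of the 39 and 30 of the 30 Ccl3 UMIs.

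Such cells were named DC/Mac in the knockouts: 13 of 158 where miR-146a alone was missing and 20 of 145 in the double knockout, against 3 of 44 in the aged and 0 of 106 in the young wild type. Ccl3 in DC/Mac cells as a whole stood at 2.09, 62.1, 175 and 165 CPM, and the cells with these markers held 14 of 14, 94 of 126 and 119 of 120 of its UMIs in the 3 aged libraries. Without them Ccl3 in DC/Mac cells was at 47.4 CPM in the miR-146a knockout, while the double knockout was at 1.49 CPM, and Ccl4 at 94.8 and 32.7 CPM. In the miR-146a knockout 1 cell without these markers, with 38 UMIs of macrophage markers, held 10 of the remaining 32 Ccl3 and 20 of the remaining 64 Ccl4 UMIs. Over all annotated cells with the markers (11, 9, 14 and 20 cells) Ccl3 was at 1727, 2334, 1842 and 2131 CPM, within 1.5-fold across the 4 libraries, and Ccl4 at 419, 1447, 819 and 2293 CPM. In the double knockout 80 of the 128 Ccl4 UMIs came from 1 cell, and without the richest cell in each library Ccl4 was at 174, 953, 679 and 961 CPM. Gran cells held more than 2 Ccl3 UMIs only in the young and aged wild type, the libraries where cells with these markers were named Gran. DC/Mac cells of the knockouts also held erythroid markers at 4113 and 5091 CPM, against 10.4 and 17.7 CPM in the wild type. Neutrophil markers in DC/Mac cells were at 14.6, 8.87, 1259 and 1200 CPM and macrophage markers at 770, 57.6, 3723 and 1197 CPM, with C1qa, C1qb and C1qc at 0 in the aged wild type. The part of these markers in the Ccl3 and Ccl4 levels was not tested.

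**Figure D5:**
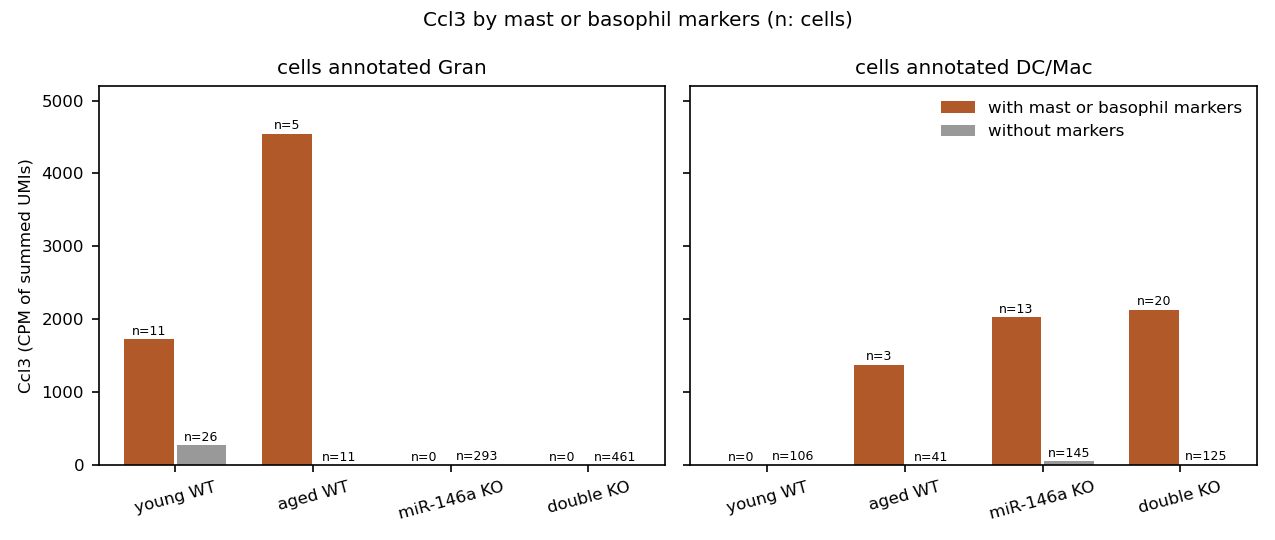
Ccl3 (CPM of summed UMIs) in cells named Gran (left) and DC/Mac (right), apart for cells with and without mast cell or basophil markers, 1 bar per library with the number of cells above it. Among cells named Gran or DC/Mac, those with the markers hold 1375 to 4544 CPM in each library that has them, and cells without them 267 CPM or less.

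Ccl5 in DC/Mac cells was at 1615, 1042, 1524 and 136 CPM, and the double knockout stood apart, 11.2-fold lower than the miR-146a knockout. In the miR-146a knockout 38 of the 158 cells held 2 or more UMIs of T cell markers and carried 712 of the 1099 Ccl5 UMIs, at 4427 CPM against 691 CPM in the other 120 cells. In the young wild type 10 such cells held only 122 of 774 UMIs. Of the 387 Ccl5 UMIs in the other 120 cells of the miR-146a knockout, 309 came from 4 cells. In the double knockout the 5 cells with 2 or more UMIs of T cell markers held no Ccl5. Its other 140 cells were at 141 CPM, against the 691 CPM of the miR-146a knockout. Ly6c+ Mono cells held Ccl3 at 1.67 to 11.8 CPM and Ly6c- Mono cells at 0, 0, 12.7 and 21.9 CPM, on no more than 9 UMIs in any library.

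The genes were carried together in some cells. Every Mem Cd8 cell with a Ccl3 or a Ccl4 UMI also had Ccl5, in all 4 libraries. Among Mem Cd8 cells with Ccl3, Ccl4 was present in 42.9, 40.0, 62.5 and 71.4%, against 4.48, 11.2, 24.1 and 10.4% of cells without Ccl3. Xcl1 was not more frequent in Ccl4-positive Mem Cd8 cells (26.3, 18.3, 14.8 and 25%) than in Ccl4-negative ones (27.0, 32.4, 19.1 and 27.1%). In NK cells the share was on the higher side in each library, at 29.8, 58.8, 78.6 and 80.6% against 19.9, 44.4, 74.3 and 55.0%. The Ccl4-positive NK cells were also deeper in 3 of the 4 libraries, with medians of 1945, 2632, 5102 and 2417 UMIs against 1785, 2134, 3725 and 2788. The Ccl4-positive Mem Cd8 cells were less deep in each library, with medians of 3375, 1989.5, 2571 and 2574 UMIs against 3430, 2886, 2750 and 2770. The part of depth was not tested in either type. Cells of 1 library are not replicates, so these are values per library.

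Mem Cd8 cells with a Ccl3 or Ccl4 UMI numbered 23, 72, 165 and 76 (6.32, 14.9, 38.1 and 15.5%). Their median depth was 3089, 2043, 2572 and 2363.5 UMIs against 3449, 2907, 2756 and 2779 in the other cells, so they were not deeper. They held 3.52, 2.15, 2.17 and 2.36 times the Ccl5 of the other cells. The 10 genes with the highest lowest ratio over the 4 libraries were Sept4, Lag3, Ifng, Pdcd1, Sdcbp2, Rgs1, BC003331, Gzmb, Ccdc130 and Nr4a2; Sept4 and Nr4a2 had 0 UMIs in the 23 positive cells of the young wild type and rank there through the 1 count added.

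Lag3, an inhibitory receptor of T cells, was at 583 CPM in positive and 101 CPM in negative cells of the miR-146a knockout, a ratio of 5.75 (4.51 to 7.40). In the double knockout it was at 397 against 82.0 CPM (4.85-fold, 3.56 to 6.57) and in the aged wild type at 108 against 27.5 CPM (3.93-fold, 2.13 to 7.07). The young wild type had 3 and 4 UMIs, a ratio of 11.8 (1.73 to 69.8). Pdcd1, which encodes the inhibitory receptor PD-1, had ratios of 7.24, 3.63 and 6.91 in the 3 aged libraries, and of 5.62 (1.58 to 16.5) on 5 and 14 UMIs in the young wild type. Gzmb, a cytotoxic granule protease, had ratios of 3.50, 4.83, 2.39 and 3.12, and Rgs1, a regulator of chemokine receptor signalling, 2.07, 3.42, 2.76 and 4.52. Ifng, the gene of interferon gamma, had 4.23, 3.70 and 9.75 in the 3 aged libraries, and 2.62 (0.285 to 11.8) on 2 and 12 UMIs in the young wild type.

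Of the measured inhibitory receptors, 0 of 2, 3 of 3, 4 of 6 and 3 of 3 were at least 2-fold higher in the positive cells. The shares among all genes were 7.14, 4.95, 2.49 and 4.75%. The receptors had a median log2 ratio of -1.49, 1.92, 2.14 and 2.26. Which receptors were measured changed with their UMIs per library. For the young wild type, Lag3 and Pdcd1 were past 2-fold but not among the 2 measured. Nothing is therefore read from how these receptor counts and medians differ between libraries. Among the cytotoxic genes 5 of 9, 3 of 9, 3 of 10 and 4 of 10 were higher, with medians of 1.02, 0.66, 0.75 and 0.75. All genes had medians between -0.08 and 0.05. Genes induced by tissue dissociation had 0 members 2-fold higher in any library, with medians between -0.06 and 0.14.

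Mem Cd8 cells with an Xcl1 UMI had a median depth of 3439.5, 3086.5, 3411 and 3136 UMIs against 3392, 2589, 2562.5 and 2603 in those without, so they were deeper in each library. They held 0.932, 0.641, 0.420 and 0.643 times the Ccl5 of cells without Xcl1. Gzma, a granule protease, was lower in them in every library: 55.9 against 426 CPM in the young wild type, 4.16 against 88.0 in the aged wild type, 6.95 against 120 in the miR-146a knockout, and 0 against 34 UMIs in the double knockout. Ifng was on the lower side too, with ratios of 0.444, 0.535, 0.346 and 0.416, of which only the interval in the miR-146a knockout (0.145 to 0.714) excluded 1.

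Receptors of these chemokines were found in myeloid and B cell types. Ccr1, which binds CCL3 and CCL5, was at 698 and 105 CPM in Gran cells of the young and aged wild type (29 and 4 UMIs). It was at 58.3 and 58.2 CPM in those of the knockouts, and at 29.9 to 45.5 CPM in cells named GC Centroblast. Only in the wild type libraries did Gran include cells with mast cell or basophil markers, and their part in the Ccr1 level was not tested. Xcr1, the receptor of XCL1, was found in DC/Mac cells at 37.6, 22.2, 30.5 and 30.2 CPM (18, 5, 22 and 22 UMIs). Ccr3 was at 20.8 CPM (15 UMIs) in DC/Mac cells of the miR-146a knockout and at 131 CPM on 5 UMIs in Gran cells of the aged wild type. Ackr2, a scavenger of CC chemokines, was at 9.26 CPM in GC Centroblast cells of the miR-146a knockout.

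Of 31 other chemokine ligands found in the matrices, only Ccl1 and Ccl25 had 20 or more UMIs over the 2 libraries of a comparison in Mem Cd8 cells, and 27 of the 28 Ccl1 UMIs there came from 1 cell of the aged wild type. Ccl6, a CC chemokine of myeloid cells, stood at 1791, 1549, 794 and 936 CPM in Ly6c+ Mono cells. Ccl9, a relative of Ccl6, stood at 1096, 921, 862 and 889 CPM there. These myeloid ligands thus exceeded Ccl3 in the same cells, where Ccl3 was at most 11.8 CPM, on a scale that does not correct for transcript length.

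The gene lists below were set with earlier results known. In Mem Cd8 cells of the miR-146a knockout against the aged wild type 6 of 6 measured inhibitory receptors were at least 2-fold higher. Their median log2 ratio was 1.72, against 0.00 over all genes. Only 3 inhibitory receptors passed the filter on UMIs over both libraries in the double knockout against the aged wild type. Some of the 6 thus passed it only through the miR-146a knockout, so nothing is read from their count and median. Against the aged wild type, Gzmb was 12.1-fold, Lag3 7.39-fold and Ifng 5.26-fold higher in the miR-146a knockout. Pdcd1 was 3.74-fold higher and Tox, a factor of exhausted T cells, 2.25-fold higher. Over all genes 232 of 7824 were at least 2-fold higher in this comparison and 216 lower. Of 11 cytotoxic genes 4 were higher and 0 lower (median 0.66), from Gzmb down to Gzmm, which was 1.82-fold lower. Of 10 NF-kB response genes 0 passed 2-fold (median 0.09), from Bcl3 with a ratio of 1.97 down to Nfkb1. Of 7 antigen receptor activation genes 1 was higher (median 0.28).

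In the double against the miR-146a knockout 5 of 6 inhibitory receptors were at least 2-fold lower (median -1.24), where 233 of 7720 genes were lower and 144 higher. So were 5 of 11 cytotoxic genes (median -0.88), with Gzmb 6.60-fold lower, while 0 of 10 NF-kB response genes passed (median -0.20). Some of the 6 receptors again passed the filter only through the miR-146a knockout, so nothing is read from their count and median. Against the aged wild type, 1 of 3 inhibitory receptors was higher in the double knockout (Lag3, 3.35-fold). None of the 11 cytotoxic genes was, with Gzma 2.55-fold lower. Over all genes 113 of 7810 were higher in this comparison and 152 lower. In the aged against the young wild type 3 of 11 cytotoxic genes were higher and 1 lower, from Gzmk, 7.32-fold higher, to Gzma, 5.41-fold lower. There 3 of 8 dissociation genes were also at least 2-fold higher (median 0.59). Over all genes 275 of 7674 were higher in the aged wild type and 121 lower.

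Genes most like each of the 4 across types were found by Pearson's r of log2(CPM + 1) over 61 sums of a type in a library with at least 30 cells, among 9283 genes. The sums share libraries, depth and cell types, so r is a description. Ccl5 was matched most closely, by Ctla2a (0.927), Eomes (0.904), Nkg7 (0.898), Samd3 (0.882) and Ctsw (0.870). Xcl1 was closest to Cd160 (0.883), Eomes (0.854), Ctla2a (0.836), Crtam (0.832) and Il2rb (0.829). Ccl4 was closest to Sytl3 (0.723), Osbpl3 (0.700), Rgs1 (0.693), Acot7 (0.690) and Id2 (0.689), and Ccl3 to Efhd2 (0.687), Gzmb (0.680), Arsb (0.679) and Grina (0.674). Between the 4 genes themselves r was highest for Ccl3 and Ccl4, at 0.843, and lowest for Ccl3 and Xcl1, at 0.457.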

How the data were processed

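The authors deposited UMI counts per gene and cell barcode, made with Cell Ranger 3.0.0 on mm10 per the submitters' processing notes, together with a cell type name for 24143 barcodes. Both 3' and 5' chemistry stand in the labels. The names are the authors' own, and the labels do not say how they were made. No doublet caller was run, and the authors have a class named T/B dbl. The 4 genes and the gene lists were chosen with earlier results of these data known.

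Deposited counts were summed over the cells of a type in each library and divided by all UMIs of those cells (CPM), with Python 3.11.15, numpy 2.4.6, scipy 1.17.1 and pandas 2.3.3. Levels have exact Poisson intervals, shares exact Clopper-Pearson intervals and ratios conditional binomial intervals, all at 95%. UMIs were 17561683 to 22399381 per library. The ratio script was tested on simulated data. With 1 library per group no test was run: genes with at least 20 UMIs over both libraries were counted as higher or lower past 2-fold, and a count of 0 was set to a floor of 3 counts. Shares were also taken after thinning cells to 1000 UMIs.

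The genes named are the 4 chemokines, their receptors, the 5 genes with the highest r for each, and the 10 genes with the highest lowest ratio over the libraries between Mem Cd8 cells with and without Ccl3 or Ccl4 (at least 50 UMIs, 1 count added); others are members of the lists. Some genes under these rules are not reported here. Likeness used genes with at least 200 UMIs. Alternatives were the mean over cells, a denominator without 746 genes, edgeR 4.0.16 TMM factors (R 4.3.3), median-of-ratios factors, cells without B cell markers, a limit of 5 UMIs per cell, and other filters. Leaving out the richest cell (also among cells with mast cell or basophil markers), the splits by mast cell or basophil and T cell markers, and the split by Xcl1 were chosen after seeing the data.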

Additional observations from a re-analysis of the deposited data

Results flagged for a closer look

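The log2 ratio of Ccl3 between the double and the miR-146a knockout was 2.74 higher in NK than in Mem Cd8 cells, since the gene was higher in the first type and lower in the second. The log2 ratio of Ccl4 between the miR-146a knockout and the aged wild type was different by -4.13 (NK minus Mem Cd8), being lower in NK and higher in Mem Cd8 cells. With 1 library per group neither difference was tested.

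Barcodes with no type name were used in no comparison, and in the knockouts they held Ccl3, Ccl4 and Ccl5, but not Xcl1, above both wild type levels. Ccl3 was at 9.60 CPM in the miR-146a knockout and 45.3 CPM in the double knockout, against 2.10 and 2.86 CPM in the young and aged wild type. Ccl4 was at 28.2 and 87.7 CPM against 2.81 and 3.93 CPM. Ccl5 was at 573 and 395 CPM against 243 and 286 CPM. In the double knockout 2 such barcodes held 178 of the 187 Ccl3 and 356 of the 362 Ccl4 UMIs.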

How the results depend on the processing

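No paired analysis was possible because each group has 1 library. Values are log2 ratios in Mem Cd8 cells. With each cell limited to 5 UMIs of the gene, Ccl3 was 2.74 (miR-146a knockout to aged wild type) and 1.36 (double knockout to aged wild type), and Ccl4 was 1.63, -1.09 (double to miR-146a knockout) and 0.54. Ccl5 was then 0.55 (aged to young), -0.042 (reversed, miR-146a knockout to aged wild type), 0.030 (double to miR-146a knockout) and -0.012 (double knockout to aged wild type); this limit by its construction removes differences among cells above 5 UMIs. In Ly6c- Mono cells Ccl5 reversed to -0.10 (double to miR-146a knockout). By the mean over cells, Ccl3 was -0.90 (double to miR-146a knockout), Ccl4 was 2.16 (miR-146a knockout to aged wild type) and -0.40, and Ccl5 was 1.10, 0.88, -0.72 and 0.16 in the order above. With the reduced denominator Ccl5 was 1.16, 0.92 and -0.71. With TMM factors it was 1.19 (aged to young), -0.77 (double to miR-146a knockout) and 0.25 (double knockout to aged wild type), and with median-of-ratios factors 1.18, -0.78 and 0.25. Without the richest cell, double to miR-146a knockout was -1.78 for Ccl3 and -1.30 for Ccl4, and Ccl4 in the double knockout to aged wild type was 1.29. Apart from the limit of 5 UMIs the cause was not tested.

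The percentage of genes past the fold with no filter, at least 50 UMIs, and 1.5-fold was 16.4, 1.48 and 11.8 (aged to young, higher), 13.2, 1.55 and 8.67 (miR-146a knockout to aged wild type, higher), 14.3, 1.37 and 9.96 (double to miR-146a knockout, lower) and 12.1, 0.423 and 5.49 (double knockout to aged wild type, higher). None of the 16 ratios in Mem Cd8 cells reversed under the other alternatives. NK values rest on 49 to 228 cells, and 1 pooled library per group leaves the spread between mice unknown.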

Other observations

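Some other levels of these genes also went with few cells or with T cell markers. Ccl5 in cells named GC Centrocyte was at 1007, 1497, 335 and 446 CPM (young wild type, aged wild type, miR-146a knockout and double knockout), and cells with 2 or more UMIs of T cell markers held 263 of 269, 463 of 472, 199 of 246 and 348 of 365 of its UMIs. In cells that the authors named T/B dbl, Ccl5 was at 966, 3202, 3708 and 3302 CPM. Ccl1, a CC chemokine of activated T cells, had 136 UMIs in Mem Cd4 cells of the aged wild type, of which 123 came from 1 cell.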
